A study of Mus musculus with 4 samples.

Results

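The 2 ends of mouse chromosomes were compared for DNA methylation in natural killer T cells (NKT cells), a T cell subset whose receptors bind lipids held by CD1d. The centromeric end was taken as positions 3000001 to 8000000 of chromosomes 1 to 7, which is where the assembled sequence begins, and the distal end as the last 5 Mb of chromosomes 1 to 6 (mm10). Members were all windows of 100 bp that the deposited table lists there, chosen by position alone. They numbered 65773 of 1048575, with 27653 at the centromeric and 38120 at the distal end, and 982802 windows made up the rest of the table.

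The cells were thymic NKT cells sorted with CD1 tetramers from C57BL/6 mice, either wild type (WT) or of a line named PLZFon, whose allele the labels do not describe. PLZF is the transcription factor, encoded by Zbtb16, that directs NKT cell development. MeDIP-seq sequences sonicated DNA pulled down with an antibody against 5-methylcytosine, beside the same DNA before the pull-down (input). There was 1 library in each of the 4 groups, with about 15143451 reads in WT MeDIP, 10635946 in PLZFon MeDIP, 60689327 in WT input and 50365402 in PLZFon input. The labels do not say how many animals gave each library, and DNA reads do not allow a check of the cell type by expressed markers. The groups follow the sample titles, although the antibody label gives the antibody for the WT input and none for the library titled PLZFon MeDIP. Over the rest of the table both libraries titled MeDIP held more reads per window as CpG number rose, from 0.702 to 1.72 reads per 1000000 reads of the library (RPM) in WT and from 0.691 to 1.60 in PLZFon between windows with 1 and with 7 or more CpG. Without replicates no test was possible. All intervals are 95% intervals that cover counting error only, and a difference between PLZFon and WT is one between libraries.

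In mammals a methyl group is carried mostly by the cytosine of CpG, and most CpG outside CpG-rich promoters is methylated. Mouse chromosomes have their centromere at one tip, next to large arrays of satellite repeats that genome assemblies leave out, and telomere repeats at the other tip. CpG-rich promoters (CpG islands) are typically unmethylated, whereas the promoters of germline genes and 1 parental copy of imprinted control regions are methylated in somatic cells.

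A window was listed only if the MeDIP libraries together had at least 10 reads there and it contained at least 1 CpG, so CpG-rich DNA without MeDIP reads is missing from the table. The minimum also raises MeDIP over input in listed windows, so its level is partly set by the listing. Promoter sequences show which part of the CpG-rich DNA is missing. RefSeq promoters of GRCm38.p6, the primary assembly of mm10, run from 250 bases before to 50 after a start site. The CpG-richest promoter without a listed window at the centromeric end was that of the cyclin-dependent kinase gene Cdk14, with 53 CpG, and at the distal end that of the proto-oncogene Ski, with 59 CpG. Those 2 are printed beside 3 promoters that a listed window did reach. Gpr153, an orphan receptor gene, had the CpG-richest of these, with 35 CpG. Tuba3b (an alpha-tubulin gene, 16 CpG) and Peg3 (a paternally expressed imprinted gene, 13 CpG) were added after their values were seen. CpG is in capitals, 5′ to 3′ on the strand of the gene.

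Cdk14 promoter, chr5:5380202-5380501, - strand: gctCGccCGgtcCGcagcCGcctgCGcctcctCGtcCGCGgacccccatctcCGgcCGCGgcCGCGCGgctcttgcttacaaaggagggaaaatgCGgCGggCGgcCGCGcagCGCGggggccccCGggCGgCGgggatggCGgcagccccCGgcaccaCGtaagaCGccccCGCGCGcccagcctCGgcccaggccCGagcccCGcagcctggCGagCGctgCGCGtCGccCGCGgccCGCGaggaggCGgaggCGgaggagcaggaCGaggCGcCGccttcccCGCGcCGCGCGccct
Ski promoter, chr4:155222486-155222785, - strand: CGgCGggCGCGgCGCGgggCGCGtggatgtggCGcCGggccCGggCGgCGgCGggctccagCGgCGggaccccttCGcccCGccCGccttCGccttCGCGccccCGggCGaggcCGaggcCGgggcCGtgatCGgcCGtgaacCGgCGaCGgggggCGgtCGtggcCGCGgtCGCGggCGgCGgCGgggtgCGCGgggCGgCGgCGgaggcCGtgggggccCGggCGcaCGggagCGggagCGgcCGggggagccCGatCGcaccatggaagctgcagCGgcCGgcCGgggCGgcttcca
Gpr153 promoter, chr4:152273862-152274161, + strand: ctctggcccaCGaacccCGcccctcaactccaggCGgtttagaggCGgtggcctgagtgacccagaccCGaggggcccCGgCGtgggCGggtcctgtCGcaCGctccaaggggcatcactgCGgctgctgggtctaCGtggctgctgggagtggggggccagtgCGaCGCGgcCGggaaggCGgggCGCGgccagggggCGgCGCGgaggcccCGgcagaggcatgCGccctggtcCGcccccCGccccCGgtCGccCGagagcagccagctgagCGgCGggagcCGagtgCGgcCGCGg
Tuba3b promoter, chr6:145615713-145616012, + strand: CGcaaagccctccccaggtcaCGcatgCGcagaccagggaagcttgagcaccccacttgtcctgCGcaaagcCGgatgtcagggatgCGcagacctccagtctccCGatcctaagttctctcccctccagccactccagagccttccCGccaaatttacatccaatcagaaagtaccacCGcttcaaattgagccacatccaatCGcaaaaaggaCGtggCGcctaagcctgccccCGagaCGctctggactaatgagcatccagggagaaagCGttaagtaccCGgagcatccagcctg
Peg3 promoter, chr7:6730370-6730669, - strand: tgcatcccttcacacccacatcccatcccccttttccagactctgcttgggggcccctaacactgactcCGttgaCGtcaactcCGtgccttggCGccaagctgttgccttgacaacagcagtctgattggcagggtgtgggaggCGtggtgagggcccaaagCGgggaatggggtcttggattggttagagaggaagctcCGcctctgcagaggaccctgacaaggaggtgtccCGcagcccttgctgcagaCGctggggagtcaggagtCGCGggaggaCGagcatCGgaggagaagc

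The Tuba3b promoter was covered by 4 adjacent listed windows with 6, 3, 7 and 6 CpG. They held 9, 13, 13 and 11 WT MeDIP reads against 9, 6, 6 and 3 WT input reads, and 5, 7, 6 and 5 PLZFon MeDIP reads against 6, 7, 7 and 10 PLZFon input reads. Scaled by depth, WT MeDIP was 7.68 times the input (2.64 to 25.1) and PLZFon MeDIP 3.63 times (1.001 to 12.4). The Peg3 promoter, from which Usp29 is transcribed the other way, met a window of 6 CpG with 6 and 5 MeDIP reads in WT and PLZFon against 5 and 10 input reads, and a window of 1 CpG with 12 and 9 against 8 and 9. Gpr153 met 2 windows of 5 and 9 CpG. They held 10 and 6 WT MeDIP reads against 16 and 13 WT input reads, a depth-scaled ratio of 2.21 whose interval (0.478 to 8.57) includes equality. A listed window thus marks overlap and not enrichment. The other CpG-rich promoters that met 1 show the same limit. The window at Vmn2r29, a vomeronasal receptor gene, held 38 and 28 input reads in WT and PLZFon against 6 and 4 MeDIP reads. Those at Epn1 and Utp25 lay almost wholly outside the promoter.

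Promoters rich in CpG were rarely reached at either end. Of promoters with at least 20 CpG, 3 of 75 at the centromeric end (4%, 0.833 to 11.2) and 2 of 179 at the distal end (1.12%, 0.136 to 3.98) overlapped a listed window, against 1.57% in the rest. The 3 centromeric ones included 2 promoters of Epn1, from 5079985 and from 5079999, which met the same window and are not independent. Promoters of 5 to 9 CpG were reached far more often, in 25 of 53 cases (47.2%, 33.3 to 61.4) and in 57 of 118 (48.3%, 39.0 to 57.7), against 37.9% in the rest (36.0 to 39.8). The intervals of the 2 ends overlapped in every CpG class, and for 5 to 9 CpG those of both ends overlapped that of the rest. Counted by window, those with at least 7 CpG inside a promoter were listed in 1 of 133 cases at the centromeric end (0.752%) and 2 of 301 at the distal end (0.664%), while windows of 3 CpG were listed in 20.8% and 29.3%. At a minimum of 20 MeDIP reads no promoter with 20 or more CpG was reached at either end, and 26.4% and 33.9% of those with 5 to 9 CpG were.

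**Figure D1:**
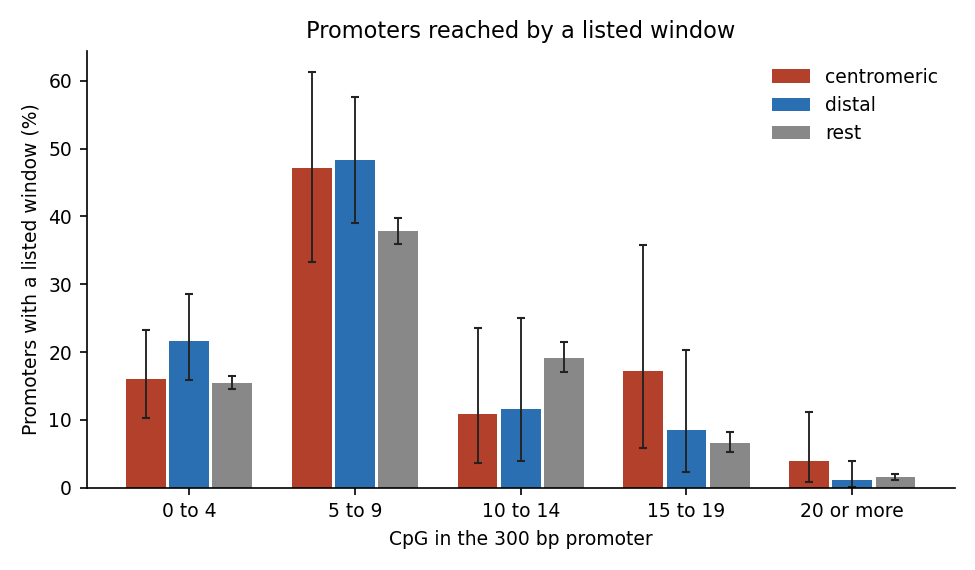
Share of RefSeq promoters (percent, vertical axis) that overlap at least 1 listed window, by the number of CpG in the 300 bp promoter (horizontal axis), at the centromeric end, the distal end and in the rest of the table. Bars are shares and lines exact 95% binomial intervals; both ends peak at 5 to 9 CpG (47.2% and 48.3%) and fall to 4% and 1.12% at 20 or more.

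The distal ends held more listed windows than the centromeric ends. There were 1271 per Mb at the distal and 790 per Mb at the centromeric end, against 936 in the rest, and over chromosomes 1 to 6 the distal density was 1.69 times the centromeric. The excess came from some chromosomes more than others. Distal density was highest on chromosomes 4 (2073 per Mb) and 5 (1900), against 646 and 794 at their centromeric ends. Chromosome 2 had nearly equal ends, 1119 and 1131 per Mb, and chromosome 3 was the other way round, with 499 centromeric and 318 distal. Protein-coding genes numbered 251 at the centromeric end, 122 of them on chromosome 7, and 294 at the distal end, 90 of them on chromosome 4. The difference also grew away from the tips. In the outermost Mb of chromosomes 1 to 6 density was 817 centromeric and 789 distal, and 4 to 5 Mb inwards it was 555 and 1609. Restricting both ends to 2 Mb brought the ratio to 1.06.

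Listed windows at the centromeric end held more MeDIP reads. The mean was 14.7 raw reads per window in WT at the centromeric end, against 12.9 at the distal end, and 10.1 against 8.81 in PLZFon, while the medians were 11 and 10 in WT and 7 at both ends in PLZFon. The mean CpG factor (the number of CpG in the window) was 2.46 centromeric, 2.38 distal and 2.34 in the rest, and windows of at least 7 CpG made up 2.66%, 1.55% and 1.61%. The ends were therefore compared within CpG factor classes 1 to 6 and 7 or more, weighted alike, on chromosomes 1 to 6.

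At equal CpG factor WT MeDIP stood at 0.968 RPM per window at the centromeric end and 0.858 at the distal end, a ratio of 0.886 (0.878 to 0.894). The distal end was the lower in 6 of 6 chromosomes, with an interval below 1 in 5, and the ratio ran from 0.759 on chromosome 4 to 0.995 on chromosome 2. PLZFon MeDIP gave the same ratio within its interval, 0.885 (0.876 to 0.895). Against the rest of the table WT MeDIP was at 1.12 (1.11 to 1.13) at the centromeric end and at 0.992 (0.987 to 0.998) at the distal end. Centromeric levels also varied more, from 0.837 RPM on chromosome 2 to 1.07 on chromosomes 3 and 4, against 0.815 to 0.946 for the distal ends.

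The inputs moved the same way by less. WT input was 0.203 RPM per window at the centromeric end and 0.192 at the distal end, a ratio of 0.943 (0.934 to 0.952), and PLZFon input gave 0.958 (0.948 to 0.968). The distal end was lower in 5 of 6 chromosomes in both, and chromosome 2 was the exception, at 1.13 in WT and 1.18 in PLZFon. Taken over input, WT MeDIP was 4.76 centromeric and 4.47 distal, a ratio of 0.940 (0.927 to 0.952). PLZFon MeDIP over input was 4.60 and 4.25, a ratio of 0.924 (0.911 to 0.938).

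The single chromosomes differed widely around that pooled value. WT MeDIP over input was lower at the distal end in 5 of 6 chromosomes, but the interval was below 1 only on chromosomes 1 (0.877), 2 (0.884) and 4 (0.890). Chromosomes 3 and 5 gave 0.988 and 0.983, with intervals that include 1. On chromosome 6 the distal end was the higher, at 1.04 (1.01 to 1.07). On chromosome 2 the 2 ends had nearly the same MeDIP level and differed in input. The centromeric end of chromosome 7, which has no distal partner here, was at 1.01 times the rest (0.985 to 1.03). Requiring at least 20 MeDIP reads per window moved the pooled WT ratio to 0.991 (0.973 to 1.01), which includes 1, and the PLZFon ratio to 0.974 (0.954 to 0.994).

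**Figure D2:**
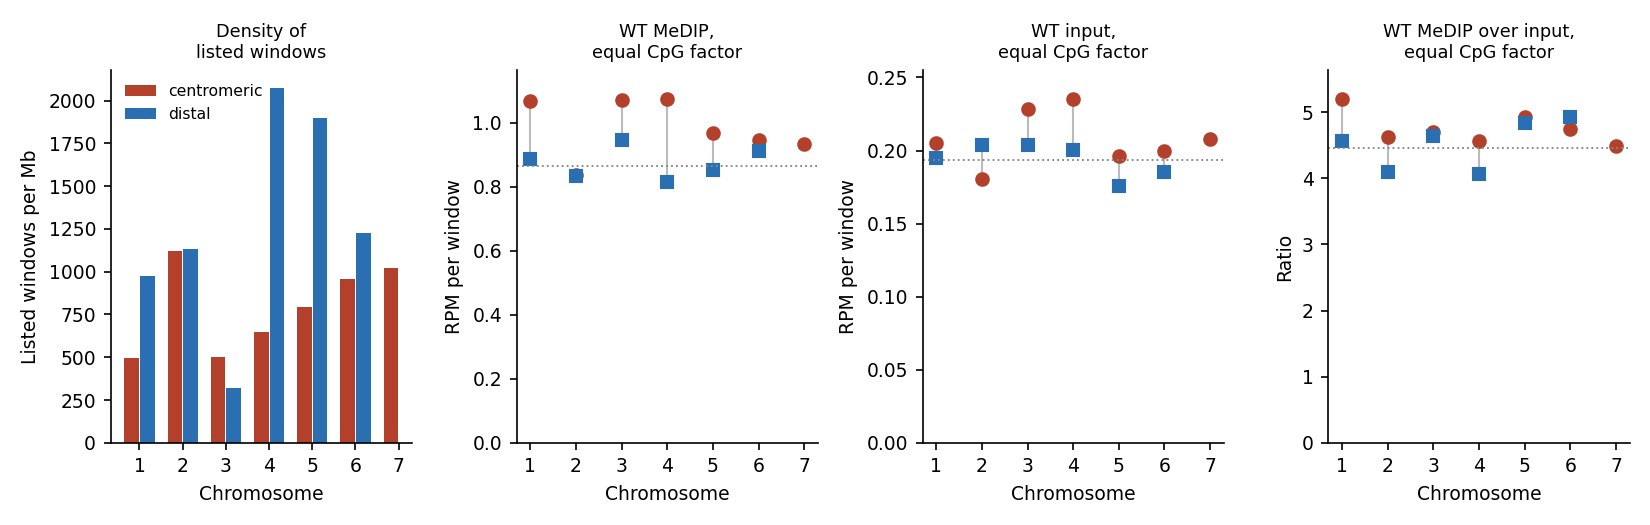
Values of the centromeric (red) and distal (blue) end of each chromosome: listed windows per Mb, then WT MeDIP and WT input in RPM per window and their ratio, all 3 at equal CpG factor, with the rest of the table as a dotted line. WT MeDIP was lower at the distal end on 6 of 6 chromosomes, and the ratio to input crossed over on chromosome 6.

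The 12 ends were set among 192 segments of 5 Mb, counted inwards from the centromeric end of chromosomes 1 to 6 and leaving out the shorter remainder before each distal end. They were not all extreme. The median WT MeDIP level at equal CpG factor was 1.02 RPM over the centromeric ends, 0.870 over the distal ends and 0.858 over the 180 inner segments, whose 10th to 90th percentile range with the ends included was 0.795 to 1.01. The centromeric ends of chromosomes 4, 3 and 1 ranked 8, 9 and 10 from the top of 192, and that of chromosome 2 ranked 126. In WT MeDIP over input the centromeric end of chromosome 1 ranked 2, at 5.20, and the distal ends of chromosomes 4 and 2 ranked 180 and 178. The other 9 ends lay between ranks 18 and 109.

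The gap between the ends widened with CpG number up to 5 CpG. In windows with 1 CpG, WT MeDIP over input was 0.995 (0.971 to 1.02) at the distal relative to the centromeric end. It was 0.948 at 2 CpG, 0.931 at 3, 0.889 at 4 and 0.867 (0.821 to 0.916) at 5, then 0.947 at 6. At 7 or more CpG the order turned, to 1.11 (1.03 to 1.19). There WT input was 0.309 RPM per window at the centromeric end of chromosomes 1 to 7, against 0.227 at the distal end and 0.233 in the rest. Without windows that held 60 or more reads over both inputs, 3 times or more the median of 20, the value at 7 or more CpG was 0.891 (0.825 to 0.962). PLZFon turned from 1.13 (1.04 to 1.22) to 0.906 (0.829 to 0.990) in the same way. This left out 14 of 566 centromeric and 5 of 589 distal windows of that class.

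**Figure D3:**
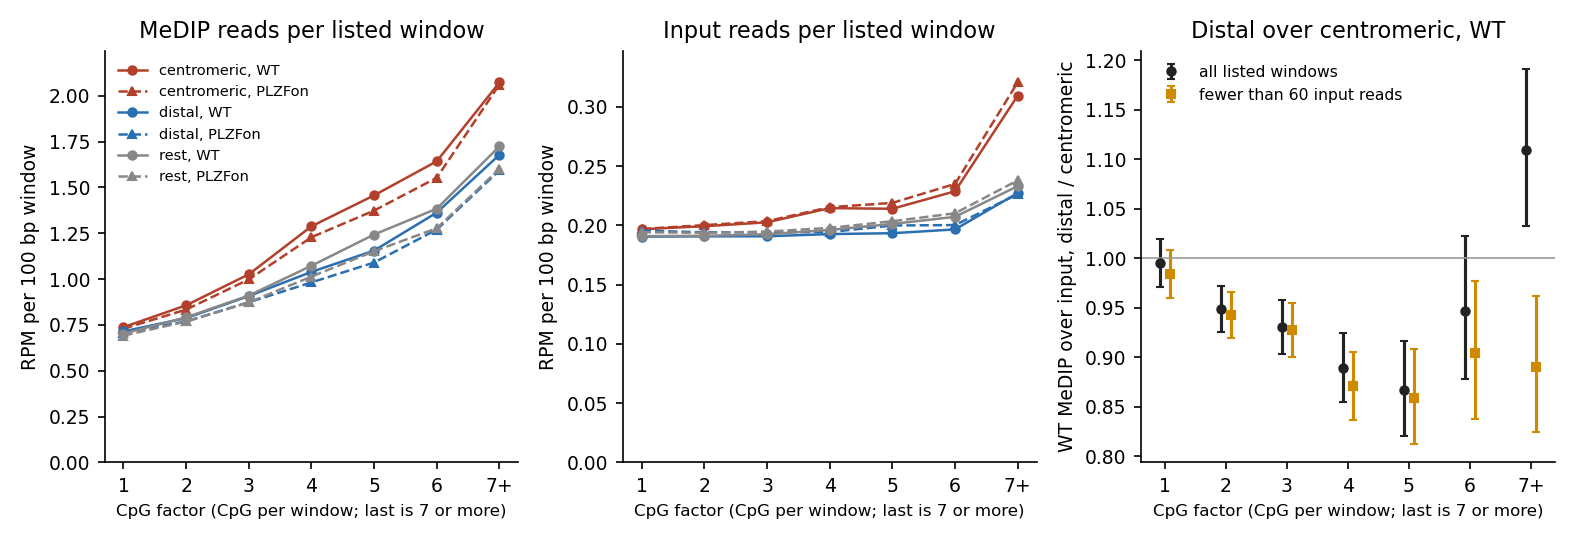
MeDIP (left) and input (middle) in RPM per listed window against the CpG factor, for both ends and the rest, WT as circles and PLZFon as triangles, and the WT MeDIP over input ratio of the distal to the centromeric end (right) with 95% counting intervals. Centromeric MeDIP lies above distal in each class, and in the top class the ratio lies above 1 with all windows (1.11) and below 1 without raised input (0.891).

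Windows with raised input sat in few places. There were 121 at the centromeric and 89 at the distal ends. Of the centromeric ones 75 lay in the outermost Mb of chromosome 4 and 30 in that of chromosome 6, and 40 of the distal ones lay in the outermost Mb of chromosome 2. On chromosomes 1 to 6 WT input was higher in the outermost Mb of both ends, at 0.235 RPM per window centromeric and 0.230 distal, than in the next Mb, at 0.188 and 0.191. Without the raised windows these outer values were 0.210 and 0.217. WT MeDIP over input in the outermost Mb was 4.51 centromeric and 4.36 distal, and 4.82 and 4.52 without the raised windows. Over the 5 distance bins the centromeric value was above the distal one in each, from 4.51 to 5.19 against 4.23 to 4.66. The intervals overlapped in the outermost Mb (4.41 to 4.60 and 4.27 to 4.45) and 3 to 4 Mb inwards (4.63 to 4.86 and 4.58 to 4.74). Bin values are not at equal CpG factor. Its mean was 2.45 centromeric and 2.48 distal in the outermost Mb, and 2.58 and 2.42 in the bin 4 to 5 Mb inwards.

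**Figure D4:**
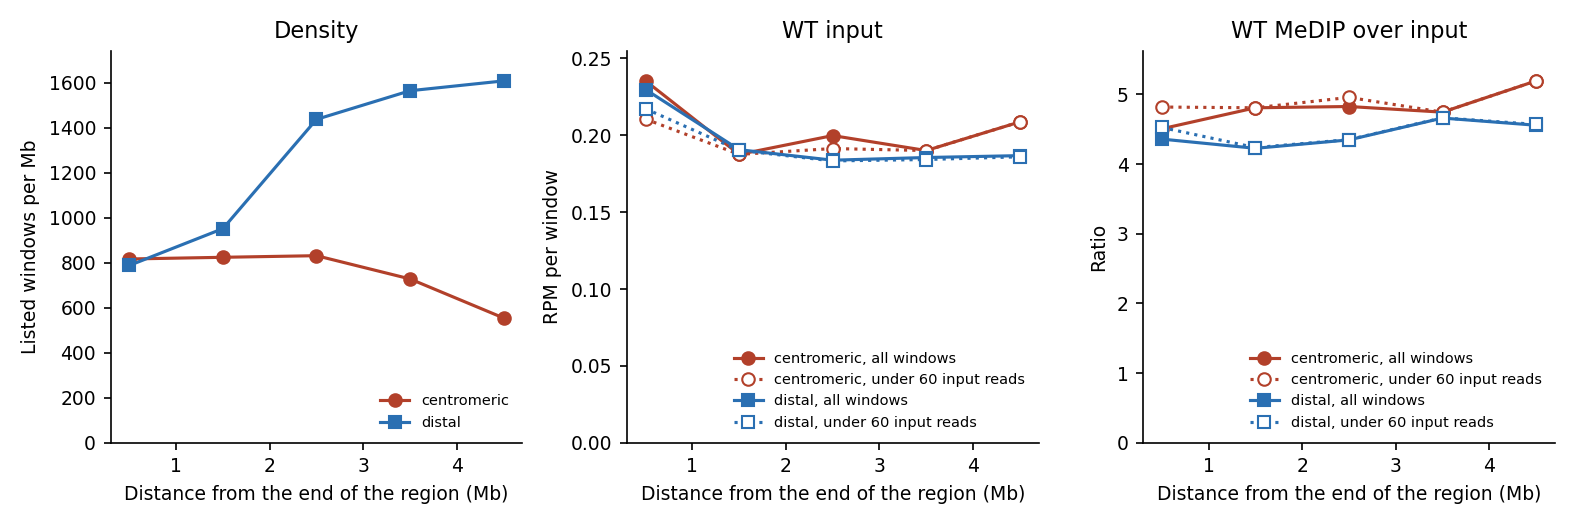
Listed windows per Mb, WT input (RPM per window) and the WT MeDIP over input ratio in 1 Mb bins against the distance from the outer edge of each end (Mb), for chromosomes 1 to 6; open symbols leave out windows with 60 or more input reads. Distal density grows from 789 to 1609 per Mb while input is highest in the outermost bin of both ends.

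The windows with the most WT MeDIP reads among those without raised input lay outside annotated genes at both ends. At the centromeric end they were a window with 6 CpG on chromosome 2 (3970501 to 3970600) with 128 WT and 67 PLZFon reads, a window with 9 CpG on chromosome 5 (7944801 to 7944900) with 127 and 70, and a window with 7 CpG on chromosome 6 (4363401 to 4363500) with 120 and 70. At the distal end, adjacent windows on chromosome 5 (147403901 to 147404000 and 147404001 to 147404100) held 138 and 121 WT reads and 57 and 52 PLZFon reads. A window with 11 CpG on chromosome 6 (149269601 to 149269700) held 131 and 74. WT input there was between 14 and 31 reads. The chromosome 5 pair shares reads and had a PLZFon over WT ratio of 0.588 (0.424 to 0.806) in its first window, while the interval of each of the other 4 sites includes equality. All these windows were chosen for their WT reads, which favours ratios below 1, so the ratios are a description.

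Over whole protein-coding genes, counting listed windows only and dividing summed counts by 4 because a read falls in about 4 windows, the median WT MeDIP over input was 4.45 over 130 centromeric loci with at least 50 WT reads, 4.13 over 176 distal loci and 4.32 over the rest. The minimum of MeDIP reads for listing raises all such gene values, so they do not measure enrichment over the whole gene. Gene values and list medians were also not taken at equal CpG factor. In centromeric windows WT MeDIP over input rose from 3.75 at 1 CpG to 6.00 at 4 CpG. Atp6v1h, which encodes a subunit of the proton pump that acidifies lysosomes, was the highest at the centromeric end (chromosome 1, 5082978 to 5163213). It held 1056 WT and 571 PLZFon MeDIP reads against 310 and 291 input reads, a WT MeDIP over input of 13.6 (12.0 to 15.5) and a PLZFon value of 9.28. The signal was not spread over the gene. Of its 83 listed windows 49 lay between 5110001 and 5120000, with a mean of 71.1 raw WT MeDIP reads per window and 4.70 RPM against 0.292 RPM of WT input. The next highest bin, 5100001 to 5110000, had 30.3 raw reads over 19 windows, and the remaining bins had 14.2 or fewer. The PLZFon over WT ratio of the locus was 0.769 (0.694 to 0.853), at an input ratio of 1.13, and it did not reach 2-fold. The gene was chosen for its high WT MeDIP over input, which favours a MeDIP ratio below 1 and an input ratio above 1. Leaving out these windows moved the pooled distal over centromeric WT MeDIP ratio from 0.886 to 0.895, an alternative chosen after the data were seen.

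The other centromeric genes with the highest WT MeDIP over input were the meiosis gene Meig1 (10.02, 5.90 to 17.6, over 8 windows), the platelet collagen receptor gene Gp6 (8.88), the vomeronasal receptor gene Vmn2r35 (8.14) and the metalloreductase gene Steap4 (7.92). Vmn2r35 held 1107 WT MeDIP reads and belongs to a family of near-identical copies, so its reads cannot be assigned to it with certainty. The lowest were Zfp787 (2.34), the myosin phosphatase subunit gene Ppp1r12c (2.38), the cytokine gene Il11 (2.64), Isoc2b (2.83) and the AMPA receptor auxiliary subunit gene Cacng8 (2.90), all on chromosome 7. Mean CpG factor ran from 2.14 (Il11) to 2.89 (Zfp787) among these. It ran from 2.28 (Atp6v1h) to 3.75 (Meig1) among the highest, so the ranking is not one at equal CpG number. At the distal end the zinc exporter gene Slc30a1 was highest, with 131 WT MeDIP against 45 WT input reads and a ratio of 11.6 (8.24 to 16.7). Sertad4 (7.12), Mansc4 (6.94), Tatdn3 (6.90) and the heme exporter gene Flvcr1 (6.72) followed, and 4 of these 5 lie on chromosome 1. Ttc34 was lowest at 1.36 (1.11 to 1.66), and 6 of its windows had raised input. Lsm14b (1.86), the Wnt signalling gene Dvl1 (2.20), the nicotinic receptor subunit gene Chrna4 (2.24) and the RNA polymerase II phosphatase gene Ssu72 (2.46) came next.

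The gene lists were described by their counts and by medians over members with at least 10 MeDIP reads. Of the 11 imprinted genes, all centromeric on chromosomes 6 and 7, each had a listed window, and their WT MeDIP over input ran from 2.97 for Pon2 to 6.52 for Calcr, the calcitonin receptor gene, with a median of 4.48 against 4.14 over all centromeric loci with at least 10 reads. Peg10, a retrotransposon-derived gene expressed from the paternal copy, was at 5.17 (4.04 to 6.63) and its neighbour Sgce at 4.92. Peg3 was at 5.69 (4.45 to 7.30). These values are not at equal CpG factor. The mean CpG factor was 3.93 in Peg10, 2.93 in Peg3, 2.90 in Calcr, 2.28 in Sgce and 1.89 in Pon2. It was 2.46 over all centromeric windows, and centromeric windows of 4 CpG stood at 6.00 in WT MeDIP over input. Many developmental transcription factor genes had no listed window at all. At the centromeric end Sox17, Dlx5 and Dlx6 had none, which made 3 of 6, and at the distal end Sox18, Hes3, Hes5, Gsx1, Pdx1 and Cdx2 had none, which made 6 of 13. Over all protein-coding genes, of any length, 30 of 251 and 18 of 294 had none. The developmental genes without a window were all short, from 1.75 kb (Hes5) to 6.66 kb (Hes3). Among the developmental genes with windows only Hes2 was shorter than Hes3, and it had 2 windows. Genes were not matched for length, so the part of gene length in these shares was not tested. Of the 3 centromeric developmental genes with windows, St18 was at 5.68 and Plag1 at 3.86. Hnf4g, with 8.25 MeDIP reads, was at 3.01 (0.775 to 10.8). The 7 distal ones had a median of 4.09, with Prdm16 at 3.98 over 803 windows.

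Immune genes covered a range from 2.21 for Tnfrsf4, which encodes the costimulatory receptor OX40, to 5.50 for Flt3, a growth factor receptor gene of blood progenitors. Their medians were 4.48 over 9 centromeric and 3.95 over 12 distal members. Cdk6, a cell cycle kinase gene, was at 4.84 and Tox, a regulator of T cell development, at 4.29. Cd34, a marker of blood progenitors, had no listed window. Neuronal genes had medians of 4.69 over 7 centromeric and 4.13 over 11 distal members, with the opioid peptide gene Penk at 7.55 and the guidance receptor gene Plxna2 at 6.71. Housekeeping genes were at 4.51 over 9 and 3.46 over 10 members, with Atp6v1h at the top and the proteasome receptor gene Adrm1 at the bottom (1.55, 0.730 to 3.07). Chromatin genes, 2 centromeric and 3 distal, ran from 2.87 for Kmt5c to 4.79 for Suv39h2. Zinc finger genes named Zfp were mostly on chromosome 7. Their centromeric median was 3.53 over 16 members, from 2.34 for Zfp787 to 6.02 for Zfp667, and their distal median 5.52 over 5 members. Over all loci with at least 10 reads the WT medians were 4.14 centromeric, 3.98 distal and 4.17 in the rest.

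MicroRNA genes were also present at both ends, with 14 RefSeq hairpins each. A listed window lay within 500 bp of 6 centromeric and 9 distal hairpins. The centromeric end of chromosome 7 holds the Mir290 to Mir295 cluster, which is known for its high expression in embryonic stem cells. The distal end of chromosome 4 holds the Mir200b, Mir200a and Mir429 cluster, which is known for epithelial expression. Mature sequences are shown for the arms whose seeds tie each cluster together, with the seed (bases 2 to 8) in capitals. They are from RefSeq, GRCm38.p6. The seed AAGUGCU is shared by 3 of the 4 shown from the first cluster, and AAUACUG by 2 of the 3 shown from the second.

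miR-291a-3p: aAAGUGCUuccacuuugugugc
miR-294-3p: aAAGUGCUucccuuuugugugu
miR-295-3p: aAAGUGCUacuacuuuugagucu
miR-291b-3p: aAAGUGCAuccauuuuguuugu
miR-200b-3p: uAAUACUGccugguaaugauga
miR-429-3p: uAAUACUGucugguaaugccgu
miR-200a-3p: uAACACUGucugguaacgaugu

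The Mir290 to Mir295 cluster met 5 adjacent listed windows, at 3218901 to 3219400 of chromosome 7, over the part that encodes miR-291a and miR-292. They held 11, 14, 14, 16 and 9 WT MeDIP reads and 1, 3, 5, 5 and 5 PLZFon MeDIP reads. The inputs went the other way, with 6, 4, 8, 7 and 8 reads in WT and 10, 9, 8, 13 and 14 in PLZFon. Summed and divided by 4, this was 16 against 4.75 MeDIP reads, a PLZFon over WT ratio of 0.423 whose interval (0.117 to 1.23) includes equality. WT MeDIP over input was 7.77 (3.16 to 20.7) there. Over the Mir200b to Mir429 cluster 9 windows were listed, with a median of 8 MeDIP reads in both WT and PLZFon, a ratio of 1.14 (0.578 to 2.22), and WT MeDIP over input of 2.63 (1.48 to 4.61). Both clusters were picked after their values were seen.

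The PLZFon over WT ratio of MeDIP was nearly the same at both ends. PLZFon over WT MeDIP was 0.972 (0.963 to 0.982) at the centromeric and 0.969 (0.961 to 0.978) at the distal end, against 0.964 in the rest, while PLZFon over WT input was 1.01 and 1.02. Both MeDIP ratios turned to 1.01 with TMM factors and with scaling by the listed windows, with intervals that include 1. No direction can therefore be given to them. At equal CpG factor the distal over centromeric value of that ratio was 0.999 (0.985 to 1.01), and no chromosome had an interval on one side of 1. The single-chromosome values ran from 0.987 to 1.04. For the inputs the same value was 1.02 (1.00125 to 1.03), and chromosome 2, at 1.05 (1.01 to 1.08), was the only one with an interval above 1.

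A window was called when the MeDIP libraries together had at least 20 reads there and it differed at least 2-fold and had an interval excluding equality. At the centromeric end 127 of 12015 windows were called higher in PLZFon and 240 lower. Over all listed windows with enough reads 1.13% were called higher and 2.17% lower, and the centromeric shares of 1.06% and 1.998% were near these. At the distal end 190 of 15362 were higher (1.24%) and 342 lower (2.23%), also near the background. The same rule on the inputs called 1.92% higher and 1.43% lower over all such windows, and 1.90% and 1.55% at the centromeric and 2.08% and 1.39% at the distal end. With TMM factors the split was 209 higher (1.74%) and 188 lower (1.56%) at the centromeric end and 297 (1.93%) and 286 (1.86%) at the distal end, against 1.8% and 1.74% over all listed windows. Over protein-coding loci 0 of 187 centromeric and 0 of 257 distal were called, against 0.0814% higher and 0.38% lower over all loci.

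Some called windows lay next to each other. Runs of at least 3 with starts at most 400 bp apart, a description chosen after the data were seen, numbered 13 higher and 23 lower at the centromeric end and 16 higher and 32 lower at the distal end. Per 1000 windows with enough reads this was 1.08 and 1.91 centromeric and 1.04 and 2.08 distal, near the 0.983 and 2.17 over all listed windows. The run with the most windows on the higher side was in Clcn4, a chloride/proton exchanger gene, with 5 windows. On the lower side the longest had 6 windows each, in Rxfp2, a relaxin family receptor gene (chromosome 5, 150025101 to 150025700), and in Vash2, an angiogenesis regulator gene (chromosome 1, 190969601 to 190970200). Rxfp2 held 174 WT and 50 PLZFon MeDIP reads summed over its windows, a ratio of 0.409 (0.199 to 0.781), and its inputs were 72 and 42. Vash2 held 219 and 62, a ratio of 0.403 (0.214 to 0.719), with inputs of 83 and 100. These runs were chosen for their difference, so the ratios are a description.

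Of the windows of the ends, 6 had an adjusted p under 0.05 in the authors' deposited table. Over all listed windows the authors' deposited table has 138 higher (0.0132%) and 13 lower (0.00124%). With 1 library a group these p-values rest on no replicate. At the centromeric end 4 were higher in PLZFon, adjacent pairs in Clcn4 and Zfp787, both on chromosome 7. At the distal end 1 was higher, in Prkcz, which encodes an atypical protein kinase C, and 1 lower, in the neurotrophic factor gene Nenf. Adjacent windows share reads, so each pair is 1 observation.

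The Clcn4 windows (7297401 to 7297500 and 7297501 to 7297600, with 7 and 6 CpG) held 8 and 12 WT against 32 and 35 PLZFon reads. The first had a ratio of 5.70 (2.57 to 14.3), and an adjusted p of 0.00255 in the authors' deposited table. They lie inside the gene, 1435 and 1335 bp downstream of the nearer of 2 RefSeq start sites. The run of 5 windows from 7297301 to 7297800 held 7, 8, 12, 17 and 17 WT MeDIP reads and 19, 32, 35, 37 and 29 PLZFon reads, with 3 or 4 WT input and 5 to 7 PLZFon input reads a window. Its ratio was 3.55 (1.91 to 6.91). Summed over the run, the inputs were 17 reads in WT and 29 in PLZFon, although the PLZFon input library is the smaller. These sums count a read in about 4 windows, and the fullest window held 4 WT and 7 PLZFon input reads. On so few reads the input went the same way as the MeDIP reads, and its part was not tested. About 1 kb towards the inside of the gene the order was the other way, with 24, 25 and 24 WT against 10, 7 and 10 PLZFon reads in the windows from 7295901, 7296001 and 7296101.

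In Zfp787, a zinc finger gene that lies on the minus strand, the pair (6132501 to 6132600 and 6132601 to 6132700) had 11 and 4 CpG. It lay 23464 and 23364 bp downstream of the start site and about 1 kb from the far end of the annotated gene. The windows held 1 and 0 WT against 17 and 16 PLZFon reads. Against a floor of 3 reads in the WT library the second was at least 7.59-fold higher, and the adjusted p in the authors' deposited table was 0.0181 for the first and 0.0333 for the second. The 6 listed windows from 6132301 to 6132900 held 2, 2, 1, 0, 0 and 0 WT and 9, 13, 17, 16, 12 and 11 PLZFon MeDIP reads. With so few WT reads these windows could reach the minimum of 10 MeDIP reads only through PLZFon, and adjacent windows share reads. That PLZFon was the higher in each of the 6 is therefore no separate support. Their inputs were 7, 4, 5, 11, 10 and 13 in WT and 5, 6, 7, 7, 11 and 14 in PLZFon. Over the whole of Zfp787 the ratio was 1.32 (0.951 to 1.82).

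The Prkcz window (chromosome 4, 155328301 to 155328400, 1 CpG) held 3 WT and 21 PLZFon reads, and its listed neighbours held 5 and 19 on one side and 4 and 15 on the other. It lay 16448 bp downstream of the nearest of 3 RefSeq start sites. With so few WT reads the called Prkcz window and these neighbours could reach the minimum of 10 MeDIP reads only through PLZFon. Adjacent windows also share reads, so the neighbours are no separate support. The Nenf window (chromosome 1, 191317401 to 191317500, 2 CpG) held 21 WT and 0 PLZFon reads, with an interval of the ratio from 0 to 0.273 and at least 4.92-fold lower at a floor of 3 reads in the PLZFon library. Its neighbours held 22 and 14 WT reads and also 0 PLZFon reads, so these windows were listed through WT reads alone. In 17 other listed windows within 1.5 kb PLZFon had 2 to 11 reads and WT 7 to 23. The inputs of the called Nenf window were 11 and 7, and those of the Prkcz window 9 and 6.

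**Figure D5:**
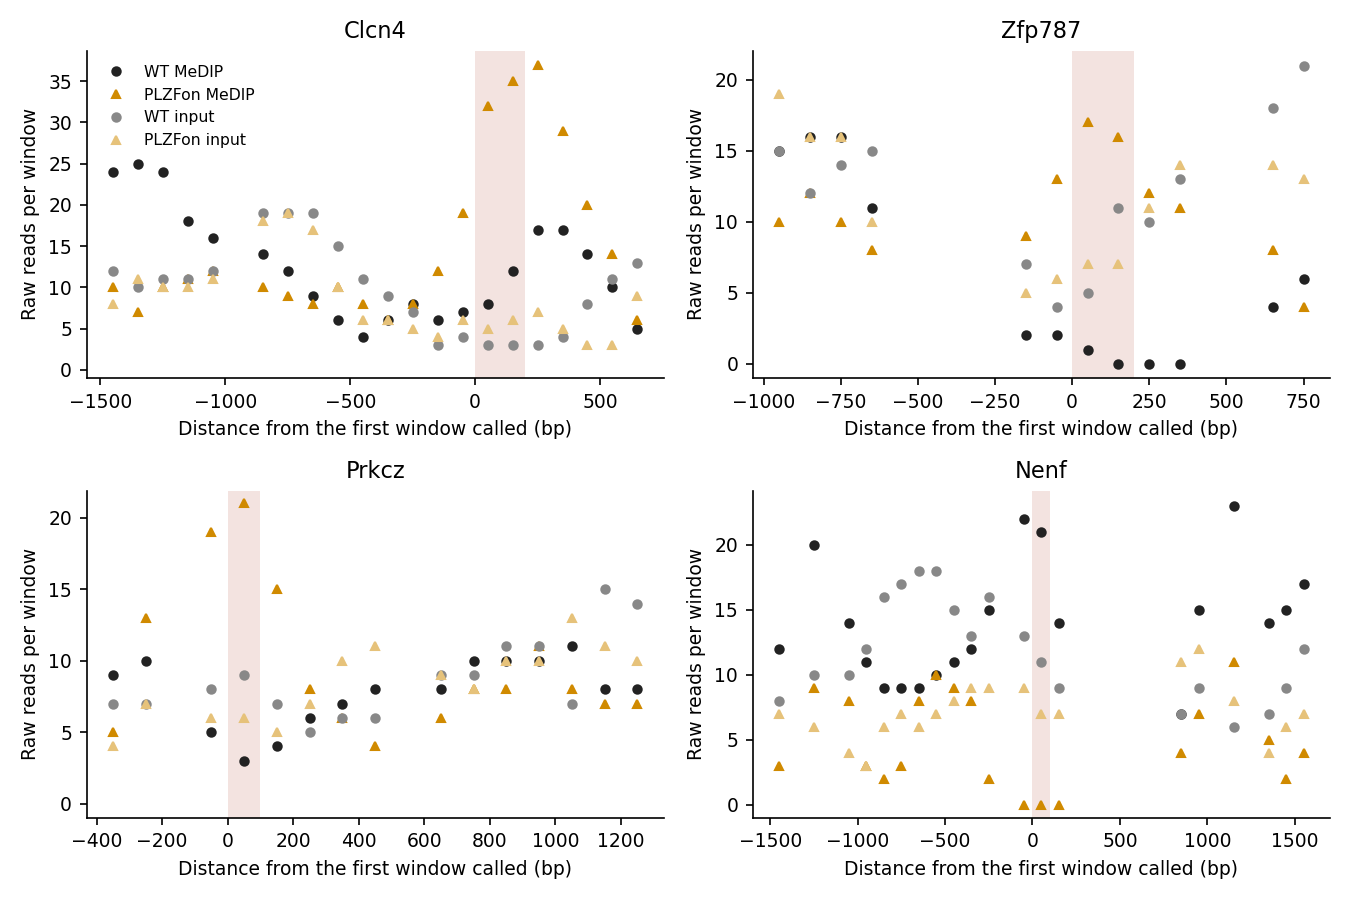
Raw reads per listed window (vertical axis) against the distance in bp from the first window called in the authors' deposited table (shaded), in Clcn4, Zfp787, Prkcz and Nenf, for WT MeDIP (black circles), PLZFon MeDIP (orange triangles) and the inputs (grey circles, pale triangles). PLZFon reads reach 37 in Clcn4 and 17 in Zfp787, where WT falls to 0, and in Nenf PLZFon falls to 0 in 3 windows.

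Whole loci had smaller ratios than these windows, none of them called. Among genes with at least 100 reads over both MeDIP libraries, the highest PLZFon over WT ratios at the centromeric end were 1.65 (1.13 to 2.42) for the pheromone receptor gene Vmn1r63, 1.62 for Hepacam2 and 1.42 for Isoc2b, and at the distal end 1.48 (1.14 to 1.92) for Ccdc27, 1.39 for Klhl42 and 1.36 for 9430015G10Rik. The lowest were 0.595 (0.384 to 0.903) for the adaptor gene Sdcbp, 0.705 for the endocytosis gene Epn1 and 0.732 for the chaperone regulator gene Hspbp1 at the centromeric end. At the distal end they were 0.601 (0.388 to 0.912) for Pthlh, which encodes a parathyroid hormone-related protein, 0.621 for Nenf and 0.624 for the stress-response transcription factor gene Atf3. The interval of Isoc2b (0.952 to 2.13) includes equality. All these loci were chosen for the size of their ratio, so the ratios and their intervals are a description. The PLZFon over WT input ratio went the same way at some of these loci and not at others, and its interval includes equality at each of them. Of the highest, Vmn1r63 was at 1.43 in input, Hepacam2 at 1.10, Isoc2b at 1.05, Ccdc27 at 0.954, Klhl42 at 0.980 and 9430015G10Rik at 1.10. Of the lowest, Sdcbp was at 1.14 and Epn1 at 1.06, the other way from their MeDIP ratios, and Hspbp1 at 0.844, Pthlh at 0.784, Nenf at 0.855 and Atf3 at 0.876. The part of the inputs was not tested.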

How the data were processed

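MeDIP and input DNA of thymic NKT cells was sequenced, 1 library each for WT and PLZFon, after sonication to a median of 180 to 230 bp per the labels' protocols. The submitters' processing notes name BWA, edgeR and mm10 and give no versions. The deposited table gives raw counts of reads per 100 bp window, with sorted and unique-filtered alignments named per the file headers. RPKM values in it were computed by the authors from the counts, and the authors' relative methylation score was not used. The CpG factor, a score in the deposited table, equalled the CpG number of the sequence in 2531 of 2531 promoter windows. The authors' edgeR columns give a log2 fold change, p-values and adjusted p-values. The table ends on chromosome 7 at 139972600, and regions beyond it were not analysed here. Unlisted windows may still hold reads.

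Library totals were recovered from counts and RPKM. RPM is counts per 1000000 of these totals, which ranged from 10635946 to 60689327 reads, so WT input is the most and PLZFon MeDIP the least precise. Intervals took counts divided by 4 as reads, since neighbouring windows share them. In the MeDIP libraries windows 2 positions apart already differed by more than counting error, so their intervals may be too narrow. Intervals for 2 libraries are exact (Clopper-Pearson), and those at equal CpG factor are from counting error on the log scale with class weights from both ends of chromosomes 1 to 6. They cover neither PCR duplicates nor variation among animals. Single windows used undivided counts. The rules were tested on simulated data. Python 3.11.15, pandas 2.3.3, scipy 1.17.1 and, for TMM factors, edgeR 4.0.16 were used.

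Named genes were, for each end, the 5 highest and 5 lowest by WT MeDIP over input (at least 50 reads), the 3 highest and 3 lowest by PLZFon over WT (at least 100 reads), list members, the 3 windows with the most WT reads all windows called in the authors' deposited table, and the promoters of the 2 genes richest in promoter CpG with a listed window and of the 1 richest without. Vash2, Rxfp2, the Tuba3b promoter, the Peg3 promoter sequence and the microRNA clusters were named outside this rule. The members and gene lists were chosen with earlier results of these data known. Alternatives were other end lengths, read minimums, folds, CpG weights, scalings and the removal of each chromosome or of windows with raised input.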

Additional observations from a re-analysis of the deposited data

How the results depend on the processing

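The 6 distal over centromeric ratios of MeDIP, input and MeDIP over input stayed below 1 under each alternative run, but the intervals of both inputs within 2 Mb and of WT MeDIP over input with at least 20 MeDIP reads include 1. In the 2 Mb next to each end they were 0.915 (WT MeDIP), 0.989 (WT input), 0.901 (PLZFon MeDIP), 0.998 (PLZFon input), 0.925 (WT MeDIP over input) and 0.903 (PLZFon MeDIP over input). With fewer than 60 input reads they were 0.893 (WT MeDIP), 0.964 (WT input), 0.895 (PLZFon MeDIP), 0.982 (PLZFon input), 0.927 (WT MeDIP over input) and 0.911 (PLZFon MeDIP over input), and with at least 20 MeDIP reads 0.884 (WT MeDIP), 0.892 (WT input), 0.879 (PLZFon MeDIP), 0.902 (PLZFon input), 0.991 (WT MeDIP over input) and 0.974 (PLZFon MeDIP over input). Without standardization for CpG factor WT MeDIP gave 0.875 and PLZFon MeDIP 0.874, and without the windows of Atp6v1h WT MeDIP gave 0.895. Leaving out 1 chromosome at a time gave 0.854 to 0.920 (WT MeDIP), 0.901 to 0.962 (WT input), 0.854 to 0.918 (PLZFon MeDIP), 0.909 to 0.981 (PLZFon input), 0.921 to 0.966 (WT MeDIP over input) and 0.906 to 0.955 (PLZFon MeDIP over input). The density ratio was 1.06 within 2 Mb, 1.57 with at least 20 reads and 1.44 to 1.92 without single chromosomes.

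PLZFon over WT MeDIP moved across 1 with TMM factors, to 1.01 centromeric (0.999 to 1.02) and 1.01 distal (0.997 to 1.01). With a scaling by reads over listed windows it was 1.01 (0.999 to 1.02) and 1.01 (0.997 to 1.01), and all these intervals include 1. With at least 20 reads it was 0.962 and 0.957. Its distal over centromeric value was 0.985 within 2 Mb. Counts of called windows (centromeric higher and lower, then distal higher and lower) were 394, 401, 569 and 602 with at least 10 reads, 16, 59, 27 and 67 with at least 40 reads and 42, 91, 60 and 159 at 3-fold. Higher calls were 209 centromeric and 297 distal with TMM factors and likewise 209 and 297 with scaling by the listed windows. Promoters reached at a minimum of 20 reads were 26.4% centromeric and 33.9% distal with 5 to 9 CpG, and 0% at both ends with 20 or more. The causes were not tested. No paired analysis was possible because each group has 1 library.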
